A study of Mus musculus with 2 samples.

Results

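The cells described are cycling T cells that carry the Il17 fate mark: 302 of 6686 CD3-positive cells, 239 in the control library and 63 in the Id2-deficient library. They were chosen by their own RNA. A cell was taken as cycling when the unique molecular identifiers (UMIs, the counted RNA molecules) of Mki67, Top2a, Birc5, Ube2c, Rrm2 and Pclaf added up to at least 8 and those of Cd3d, Cd3e and Cd3g to at least 1. The cells set beside them, called non-cycling here, were the 4913 CD3-positive cells without a UMI of the 6 genes (3496 control and 1417 Id2-deficient). The remaining 1471 cells had sums of 1 to 7 and entered neither group.

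The study asked what Id2, a transcription inhibitor without a DNA-binding domain of its own, does in the fate of interleukin-17-producing helper T cells (Th17 cells). Its 2 libraries were single-cell 3′ RNA libraries of CD4+ YFP+ cells, sorted at the peak of experimental autoimmune encephalomyelitis (EAE, used to model multiple sclerosis) after immunization with a myelin peptide (MOG) in complete Freund's adjuvant (CFA). The control mice were Il17Cre/R26YFP and the Id2-deficient mice Il17Cre/Id2f/f/R26YFP, so both carried the Cre and the reporter. Cre driven from Il17 switches on YFP for good, which marks a history of Il17 expression rather than its present use, and in the Id2-deficient mice the same Cre acts on the floxed Id2. The titles name the draining lymph node, the source field spleen with lymph node, and the protocol spleen, so the tissue cannot be settled. Age, sex and the number of mice behind each library are not given in the sources used here. With 1 library per genotype no difference between genotypes has a replicate check, no p-value was computed, and genotype and library cannot be told apart.

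A dividing cell passes through S phase, in which it copies its DNA, and through G2 and mitosis, in which it condenses and separates the copies. Genes of S phase are switched on by E2F transcription factors after the retinoblastoma family lets go of them. Genes of G2 and mitosis are held down in resting cells by the DREAM complex and are later switched on with B-Myb and FoxM1, through promoter elements called CHR and often through CCAAT boxes bound by NF-Y. Helper T cells divide in bursts after they meet antigen, mostly in lymphoid tissue, and then rest again.

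The 6 genes that chose the cells cover several of these steps. Pclaf, on chr9:65890237-65903266 (GRCm38), encodes a partner of the replication clamp, and Rrm2, on chr12:24708241-24714146, the regulatory subunit of ribonucleotide reductase, which makes deoxynucleotides. Top2a, on chr11:98992943-99024189, encodes the topoisomerase that untangles copied DNA. Mki67, on chr7:135689784-135716361, encodes the Ki-67 protein that coats mitotic chromosomes. Birc5, on chr11:117849251-117855743, encodes survivin of the chromosomal passenger complex, and Ube2c, on chr2:164769898-164778822, the ubiquitin-conjugating enzyme of the anaphase-promoting complex.

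The promoters of Ube2c and Top2a are shown because both genes served to choose the cells and their upstream sequence holds the CHR and CCAAT elements, and that of Mcm6, a subunit of the replicative helicase, because it holds E2F elements instead of CHR. Each is the 250 bases before the start in RefSeq (GRCm38.p6), read 5′ to 3′ on the gene's strand. They lie at chr2:164769679-164769928 (plus strand), chr11:99024190-99024439 (minus strand) and chr1:128359706-128359955 (minus strand). Capitals mark the CHR element (TTTGAA or TTCGAA), the CCAAT box and, in Mcm6, the E2F core (TTGGCGC), on either strand.
Ube2c: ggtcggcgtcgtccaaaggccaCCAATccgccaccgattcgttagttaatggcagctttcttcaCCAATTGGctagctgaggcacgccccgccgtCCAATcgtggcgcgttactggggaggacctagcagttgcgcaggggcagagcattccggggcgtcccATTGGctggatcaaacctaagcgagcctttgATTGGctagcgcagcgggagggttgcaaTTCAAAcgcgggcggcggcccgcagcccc
Top2a: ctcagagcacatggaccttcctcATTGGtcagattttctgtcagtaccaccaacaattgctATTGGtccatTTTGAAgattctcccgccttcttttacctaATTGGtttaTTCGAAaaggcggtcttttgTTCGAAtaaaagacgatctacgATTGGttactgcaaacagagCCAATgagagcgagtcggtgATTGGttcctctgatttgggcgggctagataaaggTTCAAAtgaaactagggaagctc
Mcm6: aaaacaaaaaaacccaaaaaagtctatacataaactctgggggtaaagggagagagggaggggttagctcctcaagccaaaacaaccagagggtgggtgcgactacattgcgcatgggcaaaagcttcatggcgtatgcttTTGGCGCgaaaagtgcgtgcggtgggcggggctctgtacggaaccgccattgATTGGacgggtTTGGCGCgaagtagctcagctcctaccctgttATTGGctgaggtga
In Ube2c the CHR element starts 29 bases before the start, behind 6 CCAAT boxes. Top2a has 4 CHR elements, at 179, 140, 120 and 23 bases, and 6 CCAAT boxes. Mcm6 has E2F cores at 109 and 46 bases and CCAAT boxes at 57 and 14. In windows of 300 bases (250 before to 50 after the start), 34 of the 46 matched promoters of a list of 53 G2/M genes held a CHR element (73.9%), against 19.4% of all 27025 promoters. A CCAAT box was in 36 (78.3%, against 37.9% of all), both in 28 (60.9%, against 7.70%) and an E2F core (GCGGGAA or TTGGCGC) in 6 (13.0%, against 6.93%). Of the 6 genes that chose the cells, 3 held a CHR element in these windows, 5 a CCAAT box and 2 an E2F core. Birc5 held none of these elements. The E2F core TTGGCGC and a CCAAT box on the other strand (ATTGG) can share the letters TTGG. Of 52 S phase genes only 38 matched a promoter (73.1%), too few for the same count. A match to these letters is a description of the sequence, not evidence that a factor was bound.

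Of CD3-positive control cells 4.98% were cycling (4.38 to 5.63%, exact Clopper-Pearson bounds at 95%), and in the Id2-deficient library 3.34% were (2.58 to 4.25%). Such intervals cover counting error only. Cycling cells were the RNA-rich end of each library. Their median was 14449 UMIs (3865 to 69486) in the control and 18057 (5658 to 57577) in the Id2-deficient library, against 5162 and 6103 in non-cycling cells, and they expressed a median of 3348 and 3842 genes, against 1832 and 2032. Among cells with at least 12000 UMIs, 158 of 429 control cells were cycling (36.8%, 32.3 to 41.6%) and 51 of 148 Id2-deficient cells (34.5%, 26.8 to 42.7%). From 6000 to 11999 UMIs it was 75 of 1479 (5.07%, 4.01 to 6.32%) and 11 of 929 (1.18%, 0.593 to 2.11%). From 3000 to 5999 UMIs it was 6 of 2751 (0.218%) and 1 of 748 (0.134%), and under 3000 none of 141 and 61. For a count of 0 the limit given here and below is 3 counts over the number of cells, 2.13% and 4.92%, and the exact upper bounds drawn in the plot by depth are 2.58% and 5.87%. Of these 4 depth classes, the intervals of the libraries stood apart in that of 6000 to 11999 UMIs and overlapped in the others, while over all cells they stood apart. A sum of raw UMIs is reached more easily in a deep cell, so a share of this kind moves with depth.

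**Figure D1:**
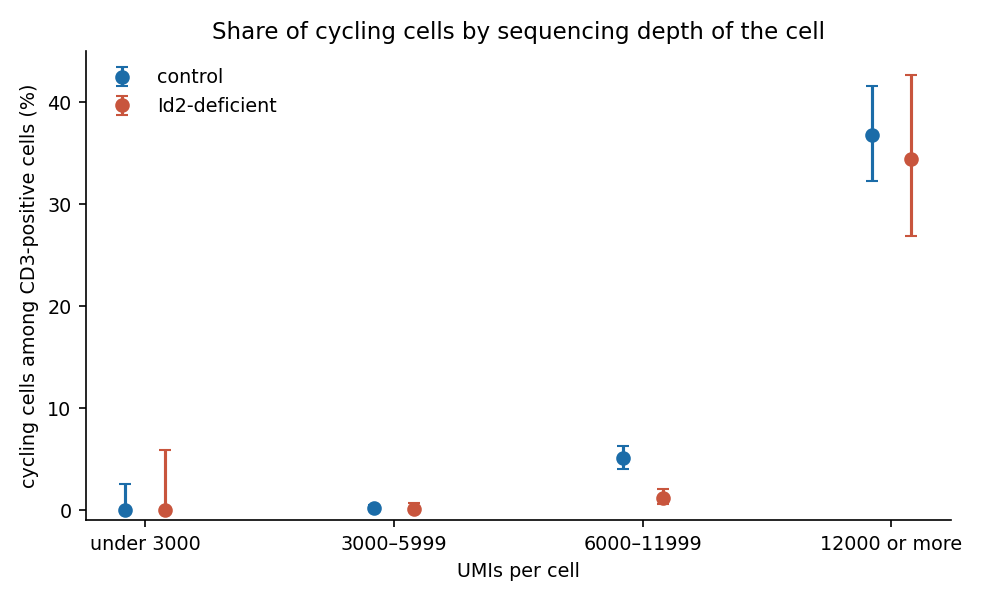
Percent of CD3-positive cells that were cycling (y axis) by the cell's UMIs (x axis, classes) in the control and Id2-deficient libraries; bars span 95% Clopper-Pearson intervals. The share was 36.8% and 34.5% in the deepest class and 5.07% and 1.18% in the class of 6000 to 11999 UMIs.

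The libraries also differed in RNA quality. Mitochondrial (mt-) UMIs made up a median of 1.26% in control and 2.92% in Id2-deficient cycling cells, and 1.81% and 4.3% in non-cycling cells. Among cells with 2% to 4% mt- UMIs the order of the shares turned: 0.674% of control cells were cycling (10 cells) and 5.67% of Id2-deficient cells (45 cells). Quartiles of cycling cells were 0.987% and 1.49% in the control, below this band. In the Id2-deficient library they were 2.53% and 3.71%, inside it. The band thus took in few of the 239 control cycling cells and most of the 63 Id2-deficient ones. What turned the order was not tested. The part of RNA quality in the difference between libraries was not tested.

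The gate was a cut through a continuous range in the control. Its cells had a median sum of 64 and a highest of 214, and in the Id2-deficient library 56 and 345. Just inside the cut, at 8 or 9 UMIs, were 23 control cells and 1 Id2-deficient cell, and just outside it, at 6 or 7, were 12 and 4. Mean UMIs per cell just inside, in the control, were 2.09 for Mki67, 1.87 for Pclaf and 1.04 for Ube2c, and just outside 2.25, 1.25 and 0.583. Over all cycling cells, Mki67 averaged 9.38 UMIs per control and 14.7 per Id2-deficient cell, Top2a 11.6 and 14.8, Birc5 11.4 and 8.62, Ube2c 10.6 and 9.32, Rrm2 9.52 and 10.8, and Pclaf 14.4 and 17.9. These values chose the cells and support nothing further.

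The T cell label held for most of these cells. A UMI of Trac, the constant part of the alpha chain of the T cell receptor, was found in 94.6% of the control cells and 98.4% of the Id2-deficient ones, and one of the beta constant genes in 99.6% and 100%. Cd4 UMIs were found in 72.8% and 90.5%, against 52.5% and 69.8% of the shallower non-cycling cells. Cd8b1 had 10 UMIs in control and 0 in Id2-deficient cycling cells. Trdc, of the delta chain of gamma delta T cells, which a CD4 sort should largely leave out, was found in 29 control cells (11 of them without Trac) and 4 Id2-deficient cells (1 without Trac). Defining genes of B cells, neutrophils, macrophages or red cells reached 3 UMIs in 26 control cycling cells (10.9%) and 2 Id2-deficient ones (3.17%), against 5.55% and 2.75% of non-cycling cells. One control cycling cell held 15204 of the 15311 UMIs that the neutrophil list had in control cycling cells, beside only 2 CD3 UMIs. Doublets were not removed, because the caller had not worked, and neither this cell nor its kind was taken out except in the alternatives.

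UMIs were summed over the cells of each group and scaled to CPM, counts per 1000000 UMIs of the group. A gene was called higher or lower when the CPM ratio of cycling over non-cycling cells was at least 2-fold, among 10784 genes with 50 or more UMIs. Counting intervals (95%, exact, conditional on the sum) are in brackets. In the control 7.23% of genes were higher and 10.8% lower, in the Id2-deficient library 9% and 13.8%, and in both libraries 5.92% (638 genes) and 5.21% (562 genes). The median over all genes was -0.16 and -0.14 on the log2 scale. The lists below hold genes whose RNA is known to follow the cell cycle, as do the 6 genes of the gate, so their counts describe the cells chosen and are read against these shares without further inference.

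The S phase genes were higher in cycling cells almost throughout: 49 of 52 in both libraries, with a median log2 ratio of 3.0 (2.81 to 3.20, the medians of the genes' bounds) in the control and 3.36 (3.10 to 3.73) in the Id2-deficient library. Pcna, the replication clamp, was at 387 against 75.2 CPM in the control (2.36 [2.26, 2.47]) and 470.5 against 66.9 CPM in the Id2-deficient library (2.81 [2.65, 2.98]). Dut, which keeps uracil out of DNA, was at 636 against 104 CPM and 646 against 73.1 CPM. Of 26 genes of replication licensing and fork, 24 were higher in both (medians 2.79 and 3.04). Mcm6, whose promoter is printed above, was at 208 against 44.5 CPM (2.22 [2.09, 2.36]) and 268 against 50.1 CPM (2.42 [2.21, 2.62]). Mcm10, a factor that fires origins, had 91 UMIs in control cycling cells and 0 in non-cycling ones, a log2 ratio of at least 7.24, where a count of 0 was set to 3. Orc2, a subunit of the origin recognition complex that stays bound in resting cells, fell short of 2-fold at 0.87 and 0.94.

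Nucleotide synthesis was split. Tk1, the thymidine kinase of dividing cells, was higher at 5.96 and 5.78, while Nme2, an abundant diphosphate kinase, stood at -0.06 and 0.44 and Dhodh, of pyrimidine synthesis, at -0.16 and -0.51. In all 11 of 24 genes were higher in both libraries, with medians of 1.06 and 1.42.

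Replication-dependent histones were among the genes with the highest ratios outside the lists. These genes lack introns and are mostly transcribed in S phase, and their RNA largely ends without a poly(A) tail, which the library kit primes on. Over 56 histone genes the median log2 ratio was 4.48 in the control, with 53 higher, and 3.97 in the Id2-deficient library, with 51 higher. They took 2.65% of all UMIs in control cycling cells against 0.0768% in non-cycling cells, and 1.63% against 0.0577% in the Id2-deficient library. Hist1h1b, a linker histone, was at 3974 against 10.7 CPM (8.54 [8.35, 8.74]) and 1849 against 3.99 CPM (8.86 [8.39, 9.37]). Hist1h2ap, a core histone H2A, was at 8508 against 36.6 CPM (7.86) and 4022 against 19.3 CPM (7.70). Histone genes of a cluster are near copies, so how their reads were split among them is uncertain. Esco2, which joins sister chromatids during replication, had 556 and 169 UMIs in cycling cells and none in non-cycling cells. Neil3, a glycosylase that repairs DNA in S phase, had 184 and 72 UMIs, against 3 and 0.

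The G2/M genes had higher ratios than the S phase genes: 50 of 53 were higher in both libraries, with medians of 5.36 (4.61 to 6.17) and 5.35 (4.71 to 6.51). Hmmr, a spindle protein, was at 197 against 0.198 CPM in the control (9.96 [8.60, 11.84]) and 167 against 0.108 CPM in the Id2-deficient library (10.60 [8.10, 15.91]). Hmgb2, a chromatin protein abundant in dividing cells, was at 5712 against 576 CPM (3.31) and 5114 against 498 CPM (3.36). Tubb5, a beta tubulin, was at 1369 against 239 CPM (2.52) and 1303 against 256 CPM (2.35). Ctcf, a general chromatin organizer that the list includes, was under 2-fold at 0.58 and 0.55.

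The machines of mitosis moved together. All 22 measured kinesin and spindle genes were higher in both libraries (medians 6.22 and 6.01), as were 18 of 20 genes of the spindle checkpoint and mitotic kinases (6.40 and 5.92), 15 of 16 of the centromere (5.04 and 4.85), and 25 of 27 of condensin, cohesin and other chromatin genes (2.82 and 2.76). Prc1, which bundles the midzone of the spindle, was at 292 against 15.0 CPM (4.28) and 243 against 9.71 CPM (4.65). Bub1, a checkpoint kinase, had 188 UMIs against 0 and 53 against 1. Cenpa, the centromere's own histone, was at 506 against 32.4 CPM (3.96 [3.84, 4.09]) and 344 against 35.1 CPM (3.29 [3.08, 3.50]). Stmn1, which takes microtubules apart, was at 1765 against 19.2 CPM (6.52) and 1261 against 14.8 CPM (6.41). Bub3, of the spindle checkpoint, fell short of 2-fold at 0.96 and 0.97, and Pttg1, securin, stood below 0 at -0.59 and -0.72. UMIs of Pttg1 per cell were still 1.07 against 0.545 in the control and 0.889 against 0.471 in the Id2-deficient library, since cycling cells hold more RNA.

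Cyclins and their kinases were higher in 15 of 19 cases (medians 3.52 and 3.86), with Ccna2, cyclin A2, at 212 against 0.346 CPM (9.26) and 164 against 0.324 CPM (8.99). The D-type cyclins, which act at the entry into the cycle, did not follow. Ccnd3 stood at 0.02 [-0.08, 0.12] and -0.28 [-0.53, -0.04]. Ccnd2 was lower in control cycling cells, at 104 against 234 CPM (-1.17 [-1.32, -1.03]), and at 225 against 240 CPM in the Id2-deficient library (-0.09 [-0.28, 0.08]). Among the regulators, 10 of 19 were higher in both libraries (medians 1.57 and 1.43). E2f8, a repressing E2F that is itself made in S phase, had 191 UMIs against 2 and 78 against 1, while Rbl2 (p130), the retinoblastoma relative of resting cells, stood at -0.26 and -0.13.

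**Figure D2:**
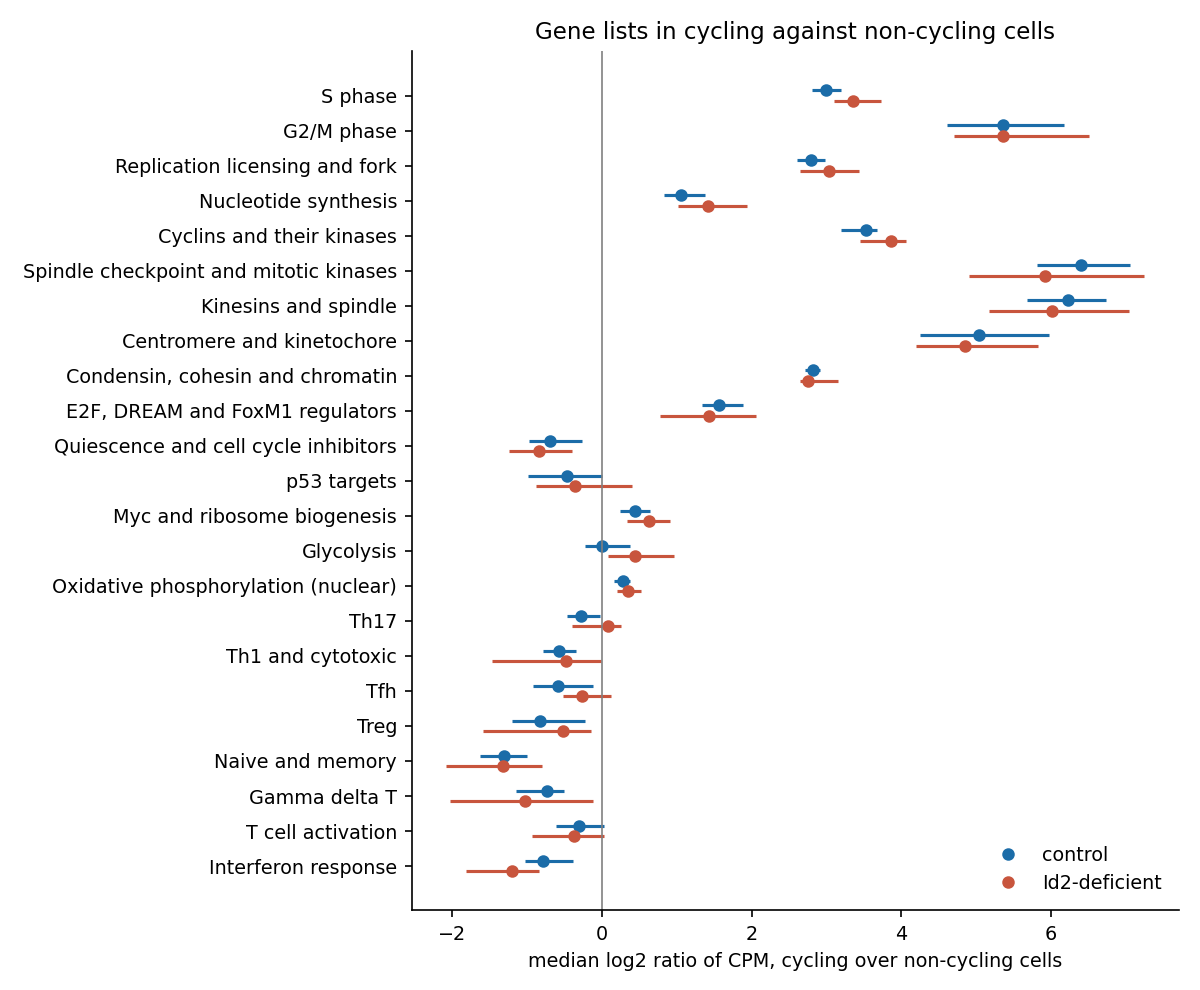
Median log2 CPM ratio of cycling over non-cycling cells (x axis) for each gene list (y axis) in the control and Id2-deficient libraries; bars run from the median of the lower to the median of the upper counting bounds of the members. The S phase list stood at 3.0 and 3.36 and the G2/M list at 5.36 and 5.35, against -0.16 and -0.14 over all genes.

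Among the genes with the lowest ratios in both libraries was Il7r, the receptor subunit for the survival cytokine interleukin-7. It was at 271 against 985 CPM in the control (-1.86 [-1.95, -1.78]) and 56.0 against 480 CPM in the Id2-deficient library (-3.10 [-3.46, -2.76]). It was lower per cell as well, at 4.60 against 5.70 UMIs and 1.14 against 3.14 UMIs. Slfn5, an interferon-inducible gene, was at 10.1 against 66.9 CPM (-2.73) and 10.1 against 107 CPM (-3.40). Pik3ip1, a brake on phosphoinositide 3-kinase, was at -2.54 and -3.32, and Kdm5b, a histone H3 lysine 4 demethylase, at -2.63 [-3.45, -1.92] and -4.18 [-6.46, -2.62]. Sostdc1, a secreted antagonist of Wnt and BMP signals, had no UMI in any cycling cell, against 114 UMIs in control and 189 in Id2-deficient non-cycling cells. Those UMIs lay in only 0.83% and 2.54% of the non-cycling cells. At such low shares, its absence from 239 and 63 cycling cells carries little weight.

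A lower CPM need not be a lower number of molecules. Of the 562 genes lower in both libraries, 139 also had fewer UMIs per cell in both. Btg1, an antiproliferative gene, was one of these: 323 against 1075 CPM (-1.73) with 5.50 against 6.22 UMIs per cell in the control, and 264 against 1088 CPM (-2.04) with 5.40 against 7.12 UMIs per cell in the Id2-deficient library. Malat1, a nuclear long noncoding RNA, was at -1.52 and -1.82 by CPM, while control cells held 117 against 115 UMIs each and Id2-deficient cells 170 against 192.

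The list of quiescence genes and inhibitors was mixed: 3 of 24 were higher and 7 lower in both libraries (medians -0.70 and -0.84). Klf2, a factor of resting and recirculating T cells, stood at -0.75 [-0.80, -0.69] and -0.95 [-1.13, -0.77] by CPM, with more UMIs per cell in cycling cells (13.1 against 7.46, and 4.25 against 2.63). Cdkn2a, which encodes the inhibitors p16 and p19Arf, was higher in control cycling cells at 27.3 against 4.3 CPM (2.67 [2.25, 3.09]). In the Id2-deficient library it was higher too, at 3.11 against 0.324 CPM (3.26 [0.70, 6.04]), on only 4 UMIs against 3. Of 14 p53 targets 1 was higher in both, Cdkn1a (p21), at 1.63 and 1.66, and 3 were lower. Naive and memory genes were lower in 10 of 19 cases (medians -1.31 and -1.32), and interferon response genes in 4 of 25, while the Id2-deficient library taken by itself had 18 lower, those 4 included.

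Genes of growth and metabolism moved less. None of 23 Myc and ribosome biogenesis genes was higher in both libraries (medians 0.44 and 0.62), with Npm1, nucleophosmin, at 0.62 and 0.66. None of 39 nuclear genes of oxidative phosphorylation was (0.28 and 0.34), and of 22 glycolysis genes 2 were (medians -0.01 and 0.44). Gapdh was at 1873 against 993 CPM (0.92 [0.88, 0.95]) and 2101 against 1006 CPM (1.06 [1.00, 1.12]), and Ldha, lactate dehydrogenase, at 0.57 and 0.90. Per cell these RNAs were several times as many in cycling cells: 31.9 against 5.75 UMIs of Gapdh in the control and 42.9 against 6.58 in the Id2-deficient library.

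To place the cells in the cycle, each was reduced at random to 5000 UMIs (3 control cells had too few), and its UMIs of the S and G2/M lists were compared after scaling each list by its mean over the cycling cells. A cell leaned to the list of which it had more. These leanings are ranges of a score, not cell types, and 51 control and 8 Id2-deficient cells lay within 1.5-fold of the cut. In the control 123 of 236 cells leaned to G2/M (52.1%, 45.5 to 58.6%) and in the Id2-deficient library 25 of 63 (39.7%, 27.6 to 52.8%). The intervals overlapped, so a difference between the libraries was not detectable with this many cells. The median cell had 28 S list UMIs (1 to 77) and 81.5 G2/M list UMIs (11 to 228) in the control, and 43 (0 to 83) and 69 (16 to 177) in the Id2-deficient library. Non-cycling cells had medians of 4 and 8 in the control and 4 and 10 in the Id2-deficient library. At least 5 G2/M UMIs were found in each of the 299 cells thinned, and at least 5 S UMIs in 218 of 236 and 57 of 63. Non-cycling cells reached 5 G2/M UMIs in 89.5% (control) and 92.6% (Id2-deficient), so that mark hardly sets cycling cells apart. They reached 5 S UMIs in 46.0% and 45.5%. Of the G2/M list, Hmgb2 alone averaged 21.3 UMIs in S-leaning and 40.8 in G2/M-leaning control cells, and 17.7 and 42.4 in the Id2-deficient library.

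The genes of the gate sorted along this axis. Ube2c averaged 0.982 UMIs in S-leaning and 5.86 in G2/M-leaning control cells, and 0.395 and 5.88 in the Id2-deficient library, at 5000 UMIs per cell. Birc5 averaged 2.20 and 5.24, and 1.21 and 4.20. Rrm2 went the other way, at 3.50 and 2.58, and 2.76 and 2.20, as did Pclaf at 4.96 and 3.02, and 4.63 and 2.92. None of the 6 is in either list, so the lists placed the cells without them. S-leaning cells were deeper before thinning, with medians of 15900 against 12963 UMIs in the control and 23503 against 13819 in the Id2-deficient library, and their mt- share was much the same (1.28% against 1.22%, and 3.08% against 2.89%).

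**Figure D3:**
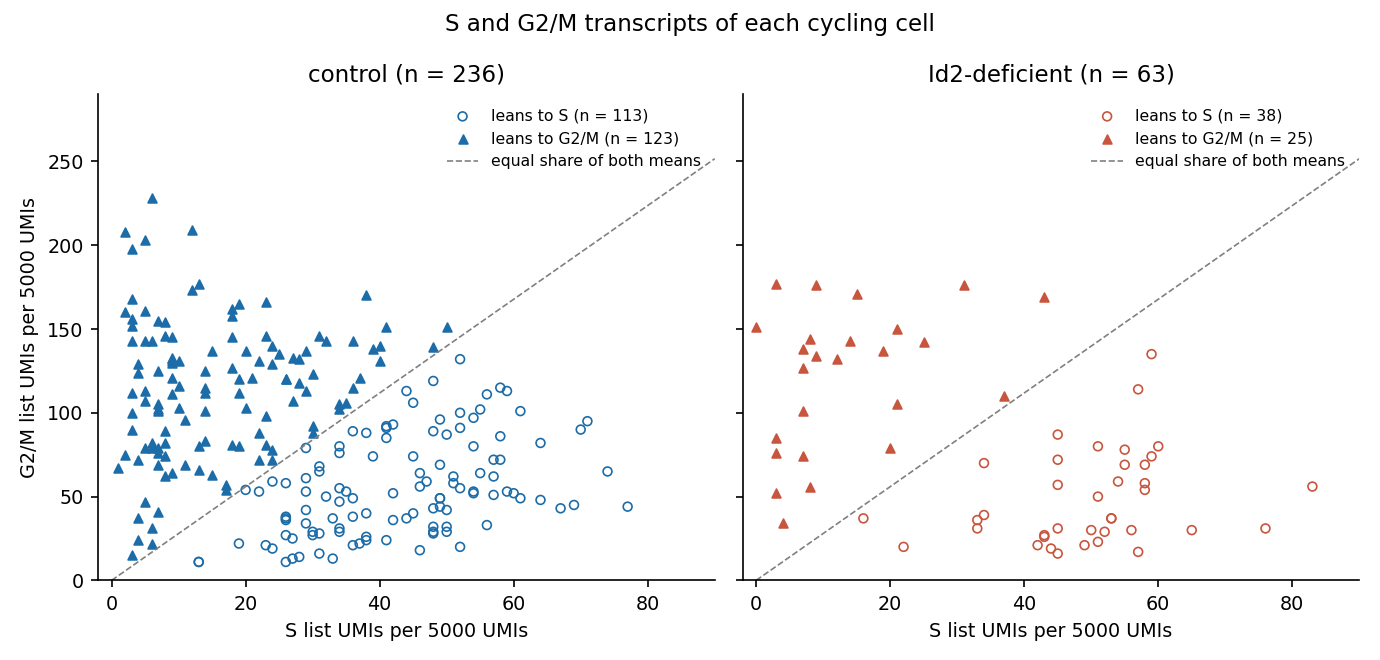
Each point is a cycling cell thinned to 5000 UMIs, with its UMIs of the S phase list (x axis) and of the G2/M list (y axis), in the control (236 cells) and Id2-deficient (63 cells) libraries. The cells spread along both axes without a gap, with medians of 28 and 81.5 UMIs in the control and 43 and 69 in the Id2-deficient library.

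Which helper states cycled was read from cells with at least 1 UMI of a state's gene after thinning every cell to 2000 UMIs. No cycling cell was too shallow for this, and 26 control and 16 Id2-deficient non-cycling cells were. Shares in B cells (38 control, 33 Id2-deficient, medians of 3646 and 4954 UMIs) give the background from free RNA.

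Il22, the cytokine interleukin-22 that some Th17 cells make, was the state most common in cycling relative to non-cycling cells. It was found in 19 of 239 control cycling cells (7.95%, 4.85 to 12.1%) against 44 of 3470 non-cycling cells (1.27%, 0.923 to 1.70%), and in 10 of 63 Id2-deficient cycling cells (15.9%, 7.88 to 27.3%) against 51 of 1401 (3.64%, 2.72 to 4.76%). No B cell had a UMI, which allows up to 7.89% and 9.09%. Turned around, 24.4% of control cells with Il22 were cycling (19 of 78, 15.3 to 35.4%) against 4.69% of the others, and 12.7% of Id2-deficient cells with Il22 (10 of 79, 6.24 to 22.0%) against 2.96%. Unthinned shares were 17.6% against 3.38% and 46.0% against 9.17%. Cells with at least 3 Il22 UMIs, unthinned, were 16 of 239 (6.69%) against 0.458% and 18 of 63 (28.6%) against 1.20%.

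The number of Il22 molecules, unlike the share of cells, rested heavily on 1 control cell. That cell held 420 of the 535 Il22 UMIs (78.5%) and also 172 of the 269 Il17f and 33 of the 93 Il17a UMIs of control cycling cells. With it, Il22 was at 132 against 9.88 CPM (3.74 [3.50, 3.98]), and without it at 28.6 CPM (1.53 [1.19, 1.87]). In the Id2-deficient library Il22 was at 185 against 21.8 CPM (3.09 [2.81, 3.36]), and at 2.79 without the cell that held the most. Il17f stood at 2.21 in the control, 0.75 [0.41, 1.09] without that cell, and at 1.87 and 1.47 in the Id2-deficient library. Il17a stood at 0.91 [0.46, 1.34] in the control without that cell. In Id2-deficient cycling cells 1 cell held 8 Il17a UMIs and all others together 3. Without it Il17a stood at -1.63 [-3.94, -0.02] there.

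The labels give the driver of the fate mark only as Il17, without naming the gene. UMIs of Il17a or Il17f, genes of interleukin-17, were found in 6.28% of control cycling cells (3.55 to 10.1%) against 2.54%. In the Id2-deficient library they were found in 9.52% (3.58 to 19.6%) against 2.43%. No B cell had one. Most cycling cells therefore showed no UMI of either gene at this depth, and unthinned shares were 20.9% and 22.2%. The Th17 list as a whole had medians of -0.29 and 0.08, with 2 of 19 genes higher in both libraries. Its most counted genes were Tmem176a and Tmem176b, a pair of ion channels of Th17 cells, at -0.58 and -0.82 in the control and 0.08 each in the Id2-deficient library.

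Cxcr5, the receptor that leads follicular helper T (Tfh) cells to B cell follicles, was in 0.837% (0.102 to 2.99%) against 3.14% in the control, and in 11.1% (4.59 to 21.6%) against 13.9% in the Id2-deficient library. B cells express it too, so the background was read in non-cycling cells with at least 3 Trdc UMIs and no Trac UMI, where it was in 0 of 324 and 0 of 65. The intervals of cycling and non-cycling Id2-deficient cells overlapped.

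In Th1 and gamma delta states cycling and non-cycling cells lay closer together. Ifng or Nkg7, genes of Th1 and cytotoxic cells, were found in 16.7% of control cycling cells (12.2 to 22.1%) against 14.4%, and in none of 63 Id2-deficient cycling cells, which allows up to 4.76%, against 1.21%. Trdc was in 9.21% (5.86 to 13.6%) against 13.8% in the control and in 6.35% (1.76 to 15.5%) against 7.85% in the Id2-deficient library. Foxp3, the factor of regulatory T cells, was in 0 of 239 and 0 of 63, which allows up to 1.26% and 4.76% by the limit of 3 counts (exact upper bounds 1.53% and 5.69%), against 0.490% and 0.357%. Cd8a or Cd8b1 were in 0.418% against 1.12%, and in none against 1.78%.

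**Figure D4:**
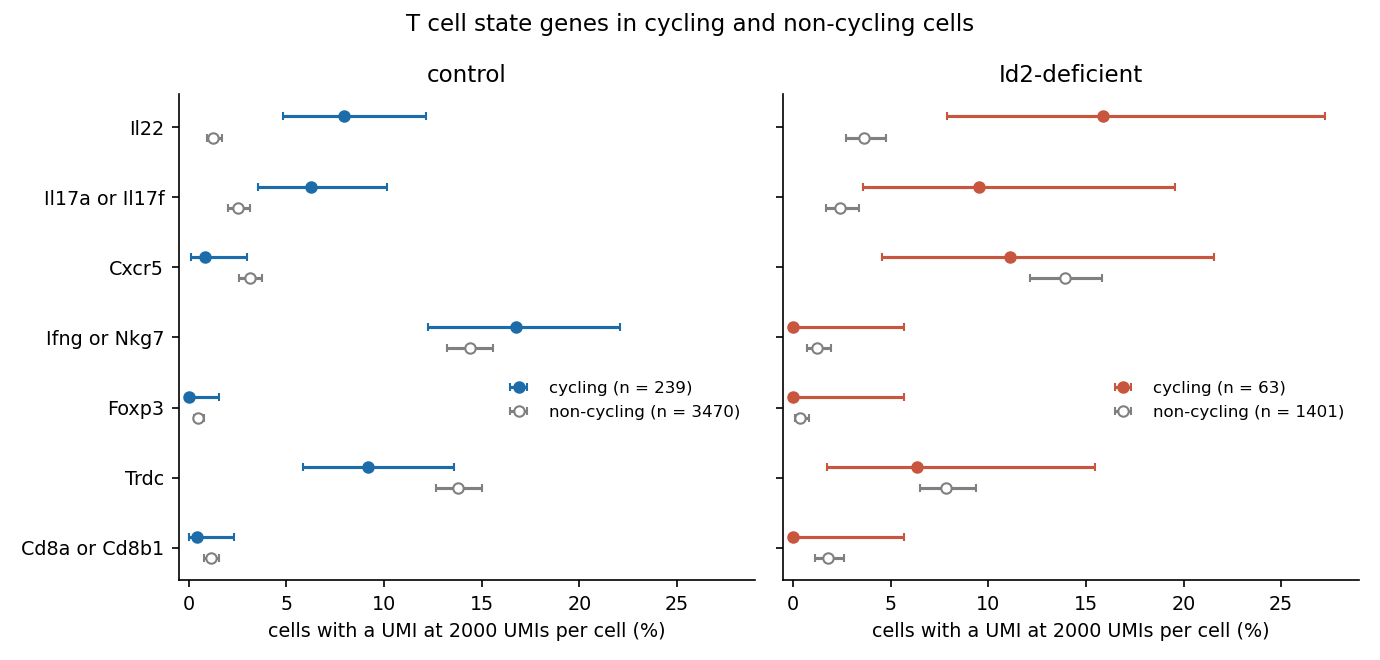
Percent of cells with at least 1 UMI of each state's genes (x axis) after thinning to 2000 UMIs, in cycling and non-cycling cells of each library; bars span 95% Clopper-Pearson intervals. Il22 was in 7.95% against 1.27% of control cells and in 15.9% against 3.64% of Id2-deficient cells.

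States overlapped within cells. In the Id2-deficient library 29 of the 63 cycling cells had an Il22 UMI and 30 a Cxcr5 UMI, unthinned, and 20 had both. In the control 42 of 239 had Il22, 11 had Cxcr5 and 4 had both. Il22 was found together with Il17a or Il17f in 16 control and 10 Id2-deficient cycling cells, and with Trdc in 2 and 0. Id2-deficient cycling cells with Il22 were deeper than those without (medians of 23247 and 15737 UMIs), which raises every such overlap. At 5000 UMIs per cell Cxcr5 was in 7 of the 29 Id2-deficient cells with Il22 and in 8 of the 34 without. The overlap was thus not seen at that depth in the Id2-deficient library. Among control cells Cxcr5 was in 3 of 41 with Il22 and in 1 of 195 without. Only Cxcr5 was thinned here, and Il22 was called from all UMIs of the cell.

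Il22 and phase went together in the Id2-deficient library. Of its S-leaning cells 15 of 38 had an Il22 UMI at 5000 UMIs per cell (39.5%, 24.0 to 56.6%), and of its G2/M-leaning cells 2 of 25 (8%, 0.984 to 26%). In the control the phases did not differ in this way, with Il22 in 10 of 113 S-leaning and 9 of 123 G2/M-leaning cells. Cells of 1 library are not replicates, and with several states looked at in 2 libraries these are descriptions.

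The Id2-deficient and control cycling cells were compared among 9123 genes with at least 20 UMIs in cycling cells, of which 5.96% were at least 2-fold higher and 6.27% lower in the Id2-deficient cells. Between the non-cycling cells the same genes gave 3.88% and 3.78%. Id2, on chr12:25093799-25097140, checks the labels: it had 1045 UMIs in control cycling cells (257 CPM, a UMI in 79.9% of cells) and 6 in Id2-deficient ones (4.67 CPM, 3.17%), a log2 ratio of -5.78 [-7.23, -4.66], against -4.94 in non-cycling cells.

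Follicular helper genes were higher in the Id2-deficient cycling cells: 15 of 17 measured and none lower (median 1.90, and 1.57 in non-cycling cells). Cxcr5 was at 70.0 against 3.20 CPM (4.45 [3.61, 5.42]), and at 82.6 against 14.6 CPM in non-cycling cells (2.50). Il21, the cytokine by which Tfh cells help B cells, was at 65.3 against 8.12 CPM (3.01 [2.41, 3.64]; 2.29 in non-cycling cells). Izumo1r, a surface protein of Tfh and regulatory T cells, stood at 2.13 and Sh2d1a, the adaptor SAP that Tfh cells need, at 1.24. Id3, the relative of Id2, was at 166 against 30.3 CPM (2.45 [2.13, 2.78]; 2.23 in non-cycling cells). Cebpa, a myeloid transcription factor, was at 46.7 against 3.69 CPM (3.66), and Spsb1, an adaptor for protein degradation, had 18 UMIs against 2 (4.83 [2.77, 7.98]).

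Th1 and cytotoxic genes were lower: 13 of 19 measured and none higher (median -1.89, and -2.25 in non-cycling cells). Ccl5, a chemokine of effector cells, had 1 UMI in Id2-deficient against 411 in control cycling cells (-7.02 [-12.33, -4.54]; -5.18 in non-cycling cells). Ctsw, a protease of cytotoxic cells, had 1 against 280 (-6.47 [-11.78, -3.98]; -2.52). Cxcr6, a receptor of tissue-homing effector cells, was at 80.1 against 300 CPM (-1.90; -1.74). Ifitm1, Ifitm2 and Ifitm3, interferon-induced membrane proteins, had 0, 8 and 22 UMIs against 299, 486 and 799, and Anxa1, annexin A1, 7 against 483. The control cell with the most UMIs held 44.7% of them for Anxa1, 33.8% for Ifitm1 and 30.7% for Ccl5. This left 267, 198 and 285 UMIs in the other control cycling cells. For Ctsw, Ifitm2 and Ifitm3 the top cell held 4.64%, 5.76% and 10.6%. Of 13 gamma delta genes 8 were lower and none higher (median -1.05; -0.68 in non-cycling cells).

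The cell cycle lists themselves differed little between the libraries. None of 52 S phase and none of 53 G2/M genes passed 2-fold, with medians of 0.35 and -0.07, and in replication 2 of 26 were higher (median 0.45). Histones were mostly lower in Id2-deficient cycling cells, with 41 of 56 below 0, 6 past 2-fold and a median of -0.37. Hist1h1b stood at -1.10 [-1.17, -1.04], Hist1h2ap at -1.08 and Hist1h2ab at 0.52. The D-type cyclins split: Ccnd2 was at 225 against 104 CPM (1.11 [0.89, 1.33]; 0.03 in non-cycling cells) and Ccnd3 at 120 against 243 CPM (-1.02 [-1.27, -0.77]; -0.72 in non-cycling cells). Il7r stood at -2.27 [-2.64, -1.93] in cycling and -1.04 [-1.08, -0.99] in non-cycling cells. Klf2 was at -1.88 and -1.68, but among cells with 2% to 4% mt- UMIs at 0.14 in cycling cells, and Hist1h1b there at 0.53, with 10 control cells.

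**Figure D5:**
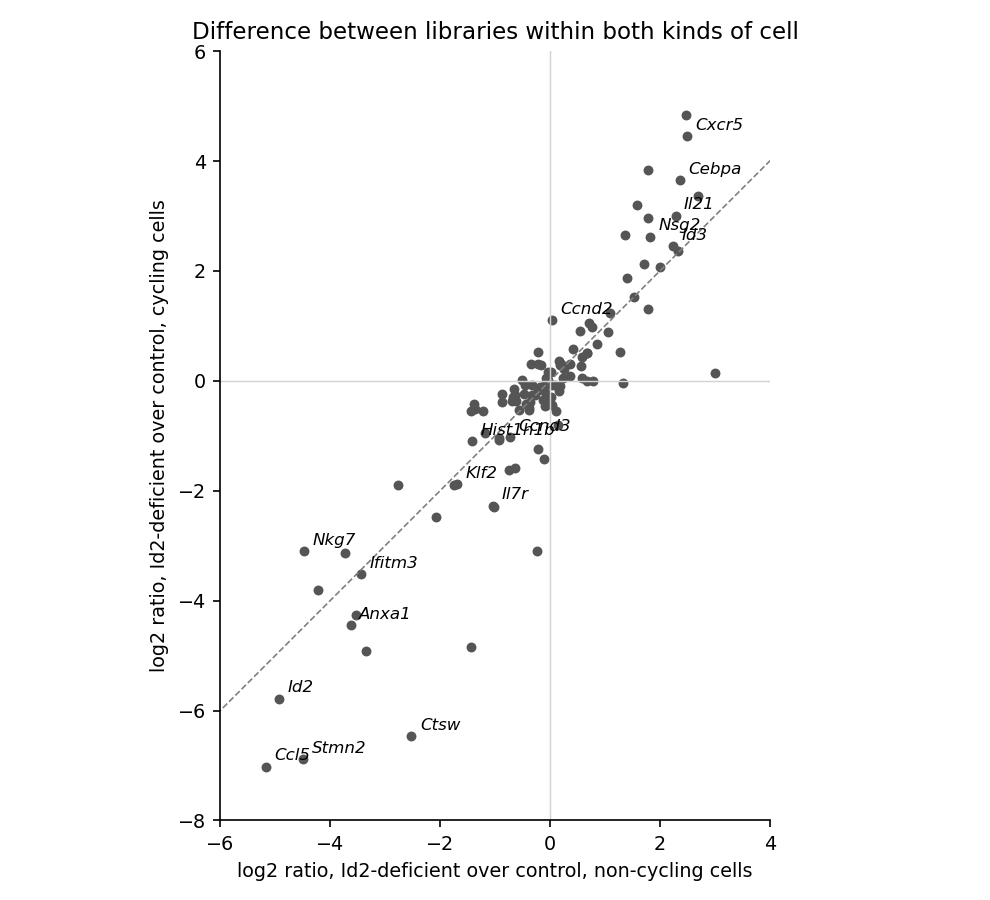
Log2 CPM ratio of Id2-deficient over control cells for 116 genes taken by the rule for named genes, in non-cycling cells (x axis) and in cycling cells (y axis); the dashed line marks equal ratios. Id2 lies far down on both axes (-4.94 and -5.78), Cxcr5 above the line (2.50 and 4.45) and Il7r below it (-1.04 and -2.27).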

How the data were processed

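The deposited files hold counts: whole UMI counts per gene and cell barcode for 32285 genes, written by Cell Ranger 5.0.1 per the file headers, while the submitters' processing notes name Cell Ranger 1.3 and mm10. The labels name version 2 of the kit, and no source used here gives the filter on barcodes before deposit. Of 7396 barcodes, 6859 with at least 200 genes and at most 10% mt- UMIs were kept (4925 of 4937 control, 1934 of 2459 Id2-deficient). The libraries shared 3 barcode sequences, none of them a cycling cell. Total UMIs were 4063773 and 1285778 in cycling and 20241907 and 9269930 in non-cycling cells of the control and Id2-deficient libraries.

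UMIs were summed per group and divided by the group's total to give CPM. Log2 ratios carry exact conditional binomial intervals, and shares Clopper-Pearson intervals, both at 95%. PCR copies were collapsed by the UMIs, and intervals do not cover differences between mice. A count of 0 was set to 3 counts, which gives a minimum fold. No test was run, with 1 library per genotype. The steps were tested on simulated data. Scrublet (scanpy 1.11.5) called 2 of 4925 control and 8 of 1934 Id2-deficient barcodes, too few to have worked, so doublets stayed in. The other tools were Python 3.11.15, numpy 2.4.6, scipy 1.17.1, pandas 2.3.3 and matplotlib 3.10.9. Coordinates are from GENCODE on GRCm38 and promoters from RefSeq. Of the symbols in the 32 gene lists 4 were missing from the tables, and 38 symbols occurred more than once, kept apart by gene ID.

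Named genes were the 6 gate genes, Id2, the state genes, the genes with the most extreme interval bounds in each comparison, and from each list the members with the highest and lowest ratio and the most UMIs. Extremes left out genes of which 1 cell held 10% or more of the UMIs, receptor and immunoglobulin segments, mt- and ribosomal protein genes. Cells, lists and genes were chosen with earlier results of these data known. The alternatives changed the gate sum, the cell and CD3 filters, depth, reference cells, scaling and low-count limits, or left out cells by doublet score, other cell types, Trdc or mt- share. Leaving out single cells and a limit of 3 Trdc UMIs were chosen after seeing the data.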

Additional observations from a re-analysis of the deposited data

Results flagged for a closer look

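For 4 of the genes described above, markers of other cell types left aside, the log2 ratio of cycling over non-cycling cells had opposite signs between the libraries, with intervals that did not cross 0. Some markers of myeloid and antigen-presenting cells had opposite signs as well. This difference was not tested, since each genotype had 1 library. Nkg7, a granule gene of cytotoxic cells, stood at -0.13 (control) and 1.24 (Id2-deficient), where 1 cell held all 22 UMIs. Nme2, a nucleoside diphosphate kinase, stood at -0.0574 and 0.44. Atp5e, a subunit of the ATP synthase, stood at -0.0600 and 0.19. Angptl2, a secreted angiopoietin-like protein, stood at -0.72 and 0.46.

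Barcodes outside the comparisons also reached the gate. Of 125 kept control barcodes without a CD3 UMI, 10 had a sum of at least 8 (8%, 3.90 to 14.2%), and none of 48 in the Id2-deficient library. Of 276 CD3-positive Id2-deficient barcodes removed by the filters, 6 did (2.17%, 0.802 to 4.67%), and none of 2 in the control.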

How the results depend on the processing

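No paired analysis was possible because each genotype had 1 library. Of 248 values of the main results under the alternatives, 234 lay within the main interval (or within 1.5 times a count). With cells of at least 500 genes and at most 5% mt- UMIs, 4.39% of Id2-deficient cells were cycling. With a gate of at least 12 UMIs the control share was 4.35%, and with all cells thinned to 2000 UMIs and a gate of at least 3 it was 4.23%. Thinning with that gate left 425 genes higher and 213 lower in both libraries, and 217 higher in Id2-deficient cycling cells. Among cells with at least 5000 UMIs the shares were 8.05% and 4.35%. Among cells with 2% to 4% mt- UMIs they were 0.674% and 5.67%, 22.2% of control cycling cells leaned to G2/M, 243 genes were lower in both libraries, and the control medians were -0.79 for Th1 and -1.79 for gamma delta genes. Few control cells were left there (10 cycling).

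Signs turned in 7 cases, whose cause was not tested. Thinning with a gate of at least 3 put Bbc3 (a p53 target) at 0.60 in the Id2-deficient library. The dendritic cell list, with a control median of 1.64, stood at -0.00623 without cells with UMIs of other types and at -1.79 among cells with 2% to 4% mt- UMIs. In those cells Hist1h1b stood at 0.53 and Klf2 at 0.14 between libraries, and Spsb1 at 0.33 between cycling and non-cycling control cells. Nkg7 stood at -1.60 in the Id2-deficient library without the 1 cell that held its UMIs, where the count of 0 was set to 3. The Id2-deficient values rest on 63 cycling cells.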
